A study of Sus scrofa with 15 samples.

Results

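The histone genes of the pig were followed through RNA-seq of somatic cell nuclear transfer (SCNT) embryos and of primary fetal fibroblasts. Members were the genes whose symbol has a histone stem (HIST1H to HIST4H, H1F, H2AF, H2BF, H3F3, CENPA or the newer equivalents), with each gene ID counted once. The rule found 7 of the 43294 features in the table. These were 2 replication-type genes (HIST1H2BD and HIST1H3E), 4 somatic variant genes (H2AFZ, H3F3A, H2AFY and CENPA) and 1 oocyte variant gene (H1FOO). A further 70 entries carry a histone product name in RefSeq but a LOC symbol, so the rule misses most of the pig's histone genes. These entries were collected after the symbols of the table had been seen, and are described apart from the members.

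The 15 libraries form 5 groups of 3. PFF are primary porcine fetal fibroblasts at passage 2 to 5. SCNT4c and SCNT8c are untreated cloned embryos at the 4-cell and 8-cell stage. SCNT4c-KG are 4-cell cloned embryos injected with KDM4A mRNA (1000 ng per microlitre) at 5 h after activation and cultured with 0.1 µM GSK126 from 0 to 48 h. KDM4A is a histone demethylase of H3K9 and GSK126 an inhibitor of EZH2, the H3K27 methyltransferase. SCNT4c-TDG are 4-cell cloned embryos made from fibroblasts transfected with an inducible TDG construct and selected with puromycin, in which 500 ng/ml doxycycline was given from 40 to 72 h. TDG is a DNA glycosylase that acts in DNA demethylation. No library of doxycycline alone or of uninduced TDG donor cells was analysed here, so the inducer, the selected donor cells and TDG cannot be told apart. Nor was there a library of mock-injected embryos or of either agent alone, so the injection, KDM4A and GSK126 cannot be told apart. Each embryo library came from a pool of 30 embryos, and the labels do not say whether pools came from separate sessions, so p-values measure the spread between these libraries. The 3 SCNT4c columns could be tied to the group but not to a replicate number, and are called libraries a, b and c.

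Histones package DNA into nucleosomes. Replication-type histones are made in bulk during S phase from intronless, clustered genes whose mRNAs end in a conserved stem-loop in place of a poly(A) tail. Variant histones are made throughout the cell cycle, mostly from genes with introns and with polyadenylated mRNAs. H3.3 marks active chromatin and is laid down without replication, H2A.Z sits at promoters, macroH2A is linked with repressed chromatin, and CENP-A defines the centromere. The oocyte stores its own linker histone, H1FOO, which takes the place of somatic H1 in oocytes and early embryos.

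The sequence that sets the replication-type messages apart was sought first. The stem-loop was defined as an exact stem of 6 bases that opens with GG, around a loop of 4 bases that opens with TT, within 150 bases after the stop codon. It was present in both replication-type members and in none of the 5 variant members. It was also found after 45 of the 49 replication-type LOC entries (91.8%), 1 of 8 somatic variant and 4 of 12 oocyte or germline entries. Among 20565 protein-coding genes without a histone product, 4 had a match (0.0195%). The sequences of the members are shown 5′ to 3′ on the gene's strand, from Sscrofa11.1, with stem and loop in capitals, because messages that end in this structure carry no poly(A) tail.

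HIST1H3E, chr7:20854700-20854725, minus strand: ccaaaGGCTCTTTTCAGAGCCaacca
HIST1H2BD, chr7:20821548-20821573, plus strand: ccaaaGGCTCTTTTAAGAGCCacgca

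The core of HIST1H3E was the most common among all histone entries, with 34 copies, and that of HIST1H2BD was shared by 9. In HIST1H2BD the first annotated exon stops at base 20821525, ahead of the stem-loop, and the annotated message continues in a second exon at chr7:20829098-20829491. The annotated HIST1H2BD message is thus spliced and lacks the stem-loop. How the cDNA synthesis treats messages with and without a tail was not tested.

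HIST1H2BD encodes an H2B of the large histone cluster (chr7:20821090-20829491, plus strand, 2 exons). Values below are the deposited ones, that is reads counted per gene divided by a single factor per library. In PFF HIST1H2BD read 9.77, 2.55 and 9.54. In SCNT4c it read 6.31, 0 and 4.15, and in SCNT8c 0, 6.65 and 6.34. These 3 groups overlapped. In SCNT4c-KG it read 39.2, 19.0 and 11.4, and in SCNT4c-TDG 66.9, 71.3 and 39.8. Every library of the treated groups was above every library of SCNT4c, and every SCNT4c-TDG library was above every SCNT4c-KG library. The largest of these values rests on 93 reads, so the gene was close to its detection limit in the untreated embryos. Its message shares an unbroken run of 243 bases with LOC100156937, an H2B type 1 gene, so the split of reads between them is uncertain. An assembled transcript without gene name at the same locus held more signal, 164.5 ± 40.7 (SD, n = 3) in SCNT4c and 270.1 ± 177.1 in SCNT4c-KG. That transcript was lower in SCNT4c-TDG (51.1 ± 29.0).

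HIST1H3E encodes an H3.1 (chr7:20853945-20855172, minus strand, 1 exon, listed 3 times in the table under a single gene ID). It had 0 reads in the 3 SCNT4c and the 3 SCNT4c-KG libraries, 3 reads over the PFF group, 3 over SCNT4c-TDG and 1 over SCNT8c. A count of 0 allows a value of up to 2.37 to 2.62 in an SCNT4c library, counting 3 reads as the limit and counting error only. Its coding sequence of 411 bases is identical to those of LOC106504121 and LOC110261664, with which it shares unbroken runs of 412 and 413 bases. Only uniquely mapped reads were kept, so read pairs lying wholly within the shared runs could not be counted to any of these 3 genes. The level of HIST1H3E is therefore uncertain. The opposite-strand entry LOC110261484 overlaps it.

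**Figure D1:**
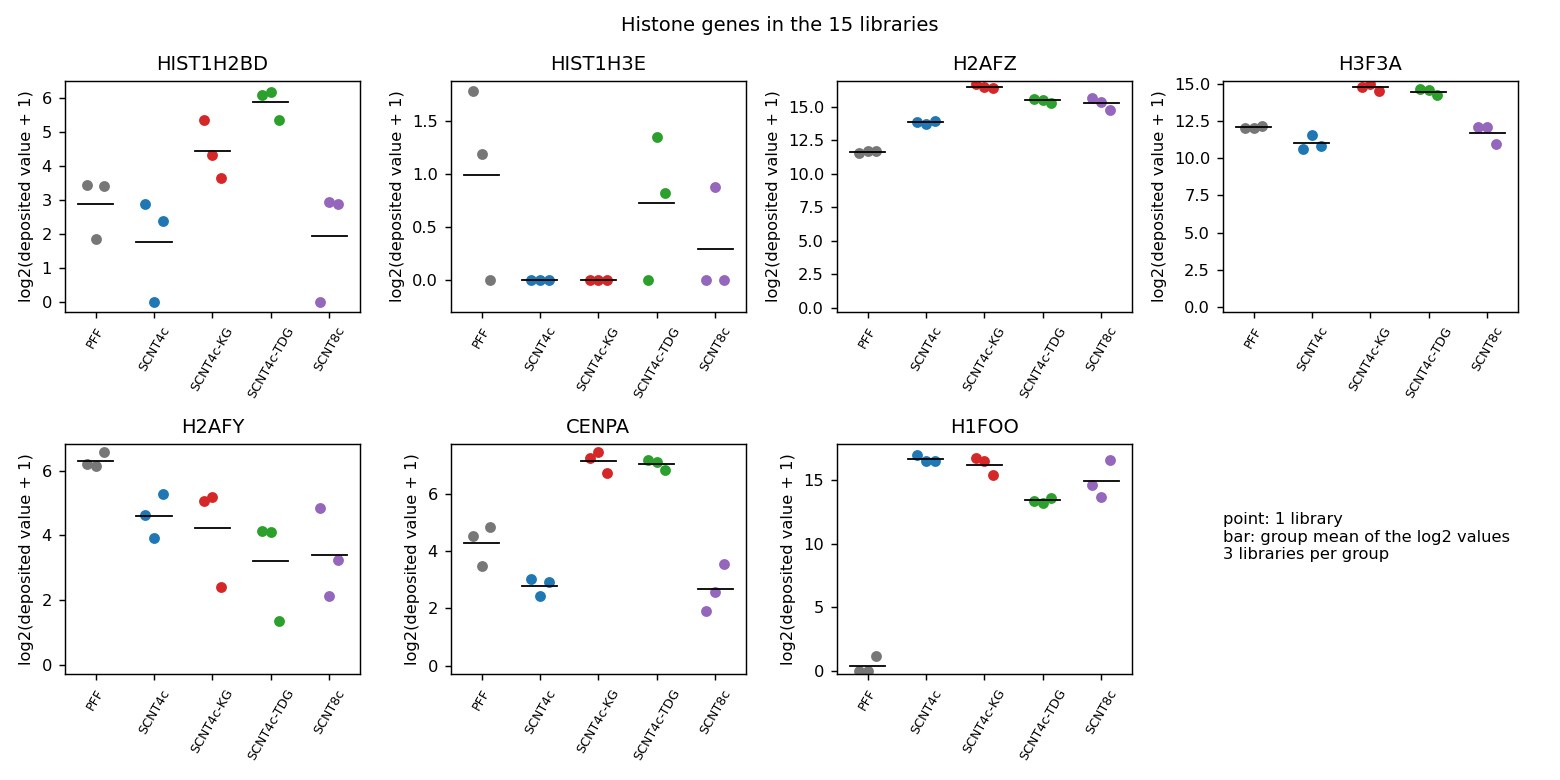
Deposited values of the 7 histone genes as log2(value + 1) on the vertical axis, by group on the horizontal axis; each point is a library, and the bar is the mean of the 3 log2 values. H2AFZ, H3F3A and CENPA sit higher in all SCNT4c-KG and SCNT4c-TDG libraries than in all SCNT4c libraries, and H1FOO is lowest among embryos in SCNT4c-TDG; vertical scales differ between panels.

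H2AFZ encodes H2A.Z (chr8:120563752-120566023, plus strand, 5 exons), the variant found around transcription start sites. In PFF it read 2997, 3229 and 3307. In SCNT4c it read 15070, 13684 and 15721. In SCNT4c-KG it read 103153, 90121 and 84124, the highest level of the gene in any group. In SCNT4c-TDG it read 49390, 46422 and 40100, and in SCNT8c 50904, 42645 and 28252. The order PFF, SCNT4c, then the other groups held in every library, while SCNT4c-TDG and SCNT8c overlapped. The gene for its closest relative H2A.V, LOC100512448 (chr18:50533382-50548341, plus strand), differs from H2AFZ at 84 of 387 coding bases and 3 of 128 residues. The H2A.V gene went from 575.4 ± 143.1 (SD, n = 3) in SCNT4c to 10880 ± 3398 in SCNT4c-KG and 4913 ± 623 in SCNT4c-TDG, but unlike H2AFZ it was higher in PFF, at 3684 ± 65.6.

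H3F3A encodes the replacement histone H3.3 (chr10:13939938-13947976, plus strand, 4 exons). In PFF it read 4257, 4162 and 4561. In SCNT4c it read 1562, 3015 and 1780. In SCNT4c-KG it read 28472, 31780 and 23474. In SCNT4c-TDG it read 24979, 24371 and 19004, overlapping SCNT4c-KG and above every library of the other groups. In SCNT8c it read 4270, 4318 and 1989, the last inside the SCNT4c range. LOC100521680, the other H3.3 gene (chr12:5632326-5634977, plus strand), encodes the identical protein of 136 residues. Its coding sequence differs at 92 of 411 bases and shares no run of 20 bases with H3F3A, so reads of the pair were separable. LOC100521680 read 18610 ± 1017 in SCNT4c, 182900 ± 44070 in SCNT4c-KG, 55630 ± 3374 in SCNT4c-TDG and 28300 ± 1000 in SCNT8c (SD, n = 3). The H3.3-like entry LOC100627410 is different, as it shares a run of 384 bases with H3F3A and the split of reads between them is uncertain. Its mean was 711.7 in SCNT4c-KG, far below H3F3A.

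**Figure D2:**
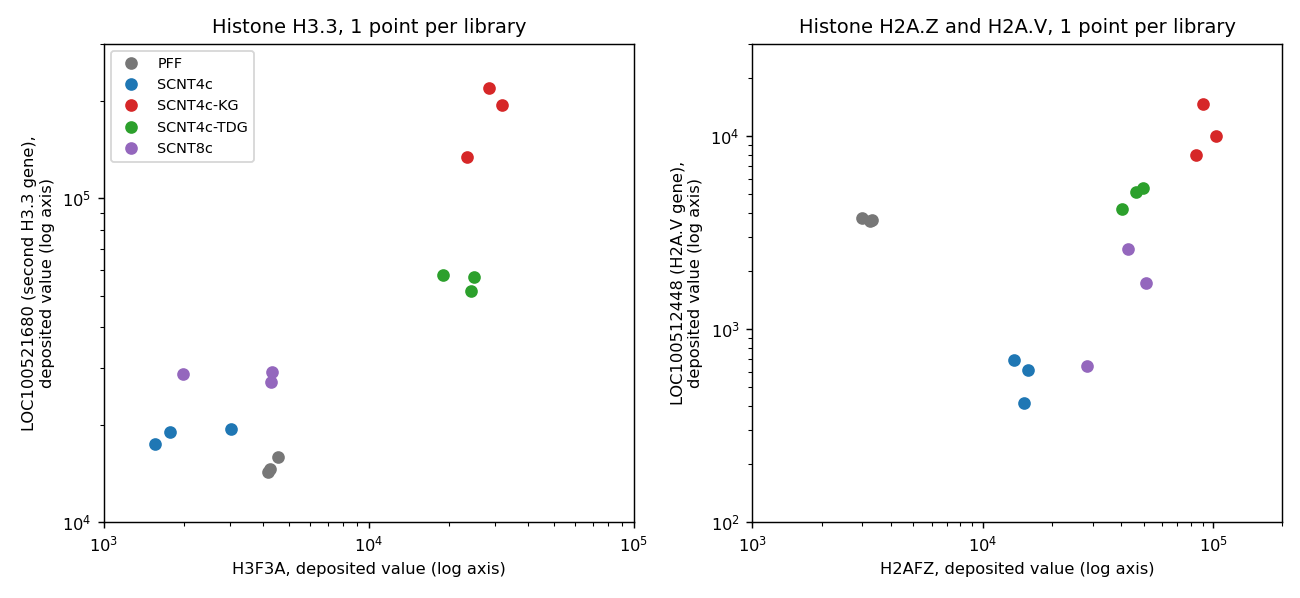
Deposited values on log axes for the pair of H3.3 genes (left) and for H2AFZ and the H2A.V gene (right), 1 point per library, coloured by group. Both H3.3 genes are high in SCNT4c-KG; in SCNT4c-TDG H3F3A overlaps SCNT4c-KG while LOC100521680 lies between 51750 and 57820, below all SCNT4c-KG libraries.

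CENPA encodes the centromeric H3 variant (chr3:112263912-112272638, minus strand, 4 exons). In PFF it read 22.0, 10.2 and 27.4. In SCNT4c it read 7.10, 4.37 and 6.64, and in SCNT8c 2.80, 4.99 and 10.6. In SCNT4c-KG it read 148.6, 175.1 and 104.0, and in SCNT4c-TDG 142.2, 135.0 and 111.7. The treated groups overlapped each other and lay above all other libraries. The SCNT4c values rest on 5 to 9 reads per library. SLC35F6 shares the merged locus of CENPA in the table. It read 35.7 ± 12.3 in SCNT4c, 37.9 ± 31.4 in SCNT4c-KG and 70.6 ± 16.3 in SCNT4c-TDG (SD, n = 3).

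H2AFY encodes macroH2A.1, an H2A with a large extra domain (chr2:137535128-137623886, minus strand, 13 exon blocks). In PFF it read 73.3, 70.1 and 94.2. In SCNT4c it read 23.7, 14.0 and 38.2, and in SCNT4c-KG 32.7, 35.5 and 4.28. In SCNT4c-TDG it read 16.7, 16.1 and 1.53, and in SCNT8c 28.0, 3.33 and 8.45. PFF stood above all embryos and the 4 embryo groups overlapped. The gene overlaps 2 annotated LOC genes, and its merged locus holds 3 assembled transcripts, so its counts are uncertain.

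H1FOO encodes the oocyte linker histone (chr13:68921491-68943061, plus strand, 5 exons). In PFF it read 0, 0 and 1.19, a single read in all. In SCNT4c it read 135057, 92871 and 92764. In SCNT4c-KG it read 111397, 96013 and 43449. In SCNT4c-TDG it read 10947, 9619 and 12856. In SCNT8c it read 25684, 12972 and 98583. Every SCNT4c-TDG library stood below every other embryo library, though SCNT8c replicate 2 was just above the highest of them. SCNT8c replicate 3 lay among the SCNT4c and SCNT4c-KG values, apart from the other two. The SCNT8c values of H1FOO are therefore also given without that library.

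Levels were compared between genes per kilobase of annotated exon. In SCNT4c H1FOO led with 75870 per kb, ahead of H2AFZ with 15910 and H3F3A with 4423. In SCNT4c-KG the order was H2AFZ with 99210, then H1FOO (59350) and H3F3A (58260), whose ranges overlapped. In SCNT4c-TDG H2AFZ (48610) and H3F3A (47570) did not differ beyond their spread and H1FOO had 7907. In SCNT8c H2AFZ (43560) and H1FOO (32470) overlapped, above H3F3A with 7361. That overlap rested on SCNT8c replicate 3: without it H2AFZ had 45760 to 54620 per kb and H1FOO 9207 to 18230, with a mean of 13720. In PFF H3F3A led with 9033, then H2AFZ with 3409. CENPA, HIST1H2BD, H2AFY and HIST1H3E stayed under 90 per kb in every library. The H3F3A model has 479 exon bases of which 411 are coding, so an unannotated 3′ end would not be in its count.

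Summed over the 4 somatic variants, the share of all deposited values was 0.0940% in SCNT4c, 0.625% in SCNT4c-KG, 0.457% in SCNT4c-TDG, 0.258% in SCNT8c and 0.0274% in PFF. H1FOO alone took 0.593% in SCNT4c and 0.428%, 0.0747% and 0.249% in SCNT4c-KG, SCNT4c-TDG and SCNT8c. In SCNT4c the oocyte class was thus the larger, with 0.501% as its lowest library against 0.0947% as the highest of the somatic class. In SCNT4c-TDG the order was turned, with at most 0.0861% against at least 0.397%. In SCNT4c-KG the oocyte class was also the smaller, with 0.241 to 0.552% against 0.598 to 0.653%. Without H2AFZ the other somatic members had a lower mean in SCNT4c than in PFF, 0.0119% against 0.0159%, with overlapping libraries. Those members took 0.131 to 0.164% in SCNT4c-KG, below H1FOO, so the order of the classes there rested on H2AFZ; in SCNT4c-TDG they took 0.128 to 0.169%, still above H1FOO. In SCNT8c the classes overlapped, with 0.0798 to 0.516% against 0.158 to 0.327%. Without SCNT8c replicate 3 they did not, with 0.0798 to 0.152% against 0.289 to 0.327%. With the LOC entries included, somatic variants took 1.63% in SCNT4c-KG and replication-type genes 0.0263%; without LOC100521680, the other H3.3 gene, the former was 0.687%. The 2 replication-type members never exceeded 0.000486%.

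The first comparison set SCNT4c-KG, given KDM4A mRNA and GSK126, against untreated SCNT4c. H2AFZ, H3F3A and CENPA rose 6.24, 13.2 and 23.6 times in group mean, while H1FOO and H2AFY did not pass the test. Of the 7 members 6 passed the filter on low values (a mean of at least 10 over the 12 embryo libraries), HIST1H3E being left out. Called means an adjusted p under 0.05 in limma on log2(value + 1), Benjamini-Hochberg over all features tested, with a fold above 2. Of the 6 members 3 were called higher and 0 lower (4 at unadjusted p under 0.05), where 17.6% of the 18942 features were called higher and 19.6% lower. Their median log2 difference was 2.66, beside −0.30 over all features. That median includes CENPA and HIST1H2BD, which passed the filter only through the treated groups, so it is no support for a shift of the members. Of the rest, H2AFZ and H3F3A had positive differences and H1FOO and H2AFY negative ones. The log2 difference of H3F3A was 3.77 ± 0.33 (SE, adjusted p = 7.32e-07). That of H2AFZ was 2.64 ± 0.24 (adjusted p = 1.08e-06) and that of CENPA 4.34 ± 0.67 (adjusted p = 0.000177). Each was higher in 3 of 3 SCNT4c-KG libraries than in any SCNT4c library. HIST1H2BD had 2.68 ± 1.06 (adjusted p = 0.0565) and did not pass, although its groups did not overlap. H1FOO differed by −0.44, with a 95% interval of −1.59 to 0.71, and H2AFY by −0.39 (−2.70 to 1.93). HIST1H2BD was called when the pseudocount was 10 (adjusted p = 0.0451), after quantile normalization (0.0407), with DESeq2 on the recovered reads (0.0299) and without SCNT4c library a (0.0481).

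The second comparison set SCNT4c-TDG against SCNT4c. H3F3A, CENPA, HIST1H2BD and H2AFZ rose 10.75, 21.5, 17.0 and 3.06 times in group mean, and H1FOO fell to a level 9.60 times lower. The HIST1H2BD fold rested on few reads in SCNT4c: it was 28.6 without SCNT4c library a and 11.35 without library b. CENPA and HIST1H2BD passed the filter on low values only through the treated groups, so their calls in SCNT4c-TDG, and that of CENPA in SCNT4c-KG, are no support beyond the values given. Of the 6 members tested 4 were called higher and 1 lower, where 15.7% of all features were called higher and 17.6% lower. Their median log2 difference was 2.54, beside −0.26 over all features. That median includes CENPA and HIST1H2BD and is likewise no support for a shift of the members. Of the rest, H3F3A and H2AFZ had positive differences and H1FOO and H2AFY negative ones. The log2 difference of H3F3A was 3.48 ± 0.33 (SE, limma adjusted p = 2.47e-06). That of H2AFZ was 1.61 ± 0.24 (adjusted p = 0.000132), that of CENPA 4.23 ± 0.67 (adjusted p = 0.000232) and that of HIST1H2BD 4.13 ± 1.06 (adjusted p = 0.00750). H1FOO fell by 3.25 ± 0.54 on the log2 scale (adjusted p = 0.000338), lower in 3 of 3 libraries. H2AFY had −1.41 (95% interval −3.73 to 0.90). Summed with the assembled transcript at its locus, HIST1H2BD turned to −0.59 with an adjusted p of 0.392, so its rise holds for the annotated exons and not for the locus. The SCNT4c libraries are shared by the first 2 comparisons.

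**Figure D3:**
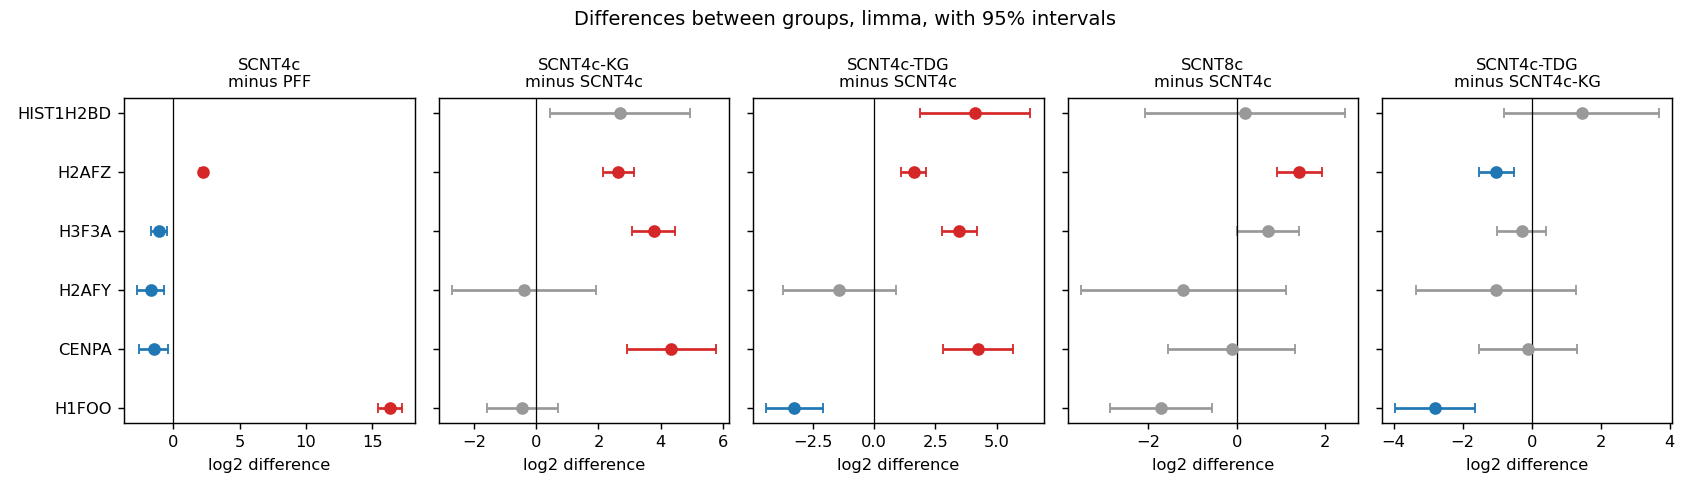
Log2 differences of 6 histone genes in the 5 comparisons (limma), with 95% intervals as bars; red points were called higher, blue lower, and grey did not pass. H2AFZ, H3F3A and CENPA are red under both treatments, and H1FOO is blue in both comparisons of SCNT4c-TDG; horizontal scales differ between panels, and HIST1H2BD is not tested against PFF.

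The treatments were then set against each other. H2AFZ was 2.04 times higher and H1FOO 7.51 times higher in SCNT4c-KG than in SCNT4c-TDG. Of the 6 members tested 2 were called lower in SCNT4c-TDG and 0 higher, where 9.13% of all features were called lower and 7.07% higher. The median log2 difference was −0.66, beside −0.02 over all features. H1FOO differed by −2.81 ± 0.54 (SE, limma adjusted p = 0.00270) and H2AFZ by −1.03 ± 0.24 (adjusted p = 0.00858). The H2AFZ difference was close to the fold limit of 2. It was −0.35 after quantile normalization (adjusted p = 0.507) and −0.66 with every library scaled to the same total (adjusted p = 0.0934). It was −0.87 with edgeR and −0.89 with DESeq2 on recovered reads, −0.95 without SCNT4c-KG replicate 1 and −0.94 without SCNT4c-TDG replicate 3, and was called in none of these 6; in the last 4 the adjusted p was under the threshold but the fold was under 2. H3F3A differed by −0.29 (95% interval −0.99 to 0.41), CENPA by −0.11 (−1.54 to 1.32) and HIST1H2BD by 1.44 (−0.81 to 3.69). The intervals leave room for a change of 2 times in CENPA. LOC100521680, the other H3.3 gene, differed by −1.69 ± 0.22 (adjusted p = 0.000184), whereas H3F3A did not pass; the difference between the pair was not tested.

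From the 4-cell to the 8-cell stage of untreated embryos H2AFZ rose 2.74 times. It was the only member called, 1 of 6 tested and 0 lower, where 2.62% of all features were called higher and 3.16% lower. The median log2 difference was 0.04, beside −0.31 over all features. H2AFZ differed by 1.41 ± 0.24 (SE, limma adjusted p = 0.0153). The call was lost with only the 2 groups in the fit (adjusted p = 0.198), without SCNT4c library b (0.0576), without SCNT8c replicate 1 (0.0643) and without SCNT8c replicate 2 (0.0560), while the log2 difference stayed between 1.23 and 1.79. H1FOO had −1.72 ± 0.54 (adjusted p = 0.0665) with all libraries. Without SCNT8c replicate 3, the library that stood apart, H1FOO had −2.53 (adjusted p = 0.000188) and H3F3A 1.08 (adjusted p = 0.00584), both then called, and 3 members in all. That library was singled out after its H1FOO value had been seen, so these calls are no support beyond the values given. With all libraries H3F3A had 0.71 ± 0.33 (adjusted p = 0.168). CENPA differed by −0.11 (95% interval −1.54 to 1.32) and HIST1H2BD by 0.19 (−2.06 to 2.44).

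In the main test cloned 4-cell embryos and the fibroblasts differed at each member that could be tested. H1FOO and H2AFZ were higher in SCNT4c. H3F3A, H2AFY and CENPA were lower, but those 3 calls depended on the scaling, as described below. This fit used the 6 libraries of PFF and SCNT4c, and 5 members passed the filter; HIST1H2BD and HIST1H3E did not. Of the 5 members 2 were called higher and 3 lower, where 39.7% of the 19287 features were called higher and 38.5% lower. The share called was therefore high everywhere. The median log2 difference was −1.09, beside 0.07 over all features. H1FOO was about 261000 times higher by its single fibroblast read, with a counting interval of 46900 to 10314000. H2AFZ differed by 2.22 ± 0.09 (SE, limma adjusted p = 3.02e-06), being 4.67 times higher. H3F3A had −1.09 ± 0.25 (adjusted p = 0.00711), CENPA −1.49 ± 0.45 (adjusted p = 0.0212) and H2AFY −1.71 ± 0.41 (adjusted p = 0.00814).

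The 3 lower calls against PFF depended on the scaling and on further choices. The deposited totals differ between these groups, and scaling by edgeR or DESeq2 moved the median over all features by 0.84 or 0.89 on the log2 scale. With edgeR H3F3A had −0.28, CENPA −0.97 and H2AFY −0.90, and none was called; with DESeq2 the values were −0.24, −0.94 and −0.85. H2AFZ and H1FOO were called under every alternative. H3F3A was also lost after quantile normalization (−0.60), with the same total in each library (−0.47) and without SCNT4c library a (−0.90) or c (−0.99). CENPA was also lost with a pseudocount of 10 (−0.85), with the same total (−0.91) and without PFF replicate 1 (−1.36), PFF replicate 3 (−1.21) or SCNT4c library b (−1.30). H2AFY was lost when summed with the assembled transcripts at its locus (−0.61) and with all 15 libraries in the fit (−1.71, limma adjusted p = 0.120). RNA was extracted by TRIzol from PFF and by a PicoPure kit from embryos, so extraction and cell type cannot be told apart.

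Promoters of members that moved are shown next. Each window runs from 250 bases before to 50 bases after the annotated gene start, on the gene's strand, 300 bases in Sscrofa11.1 from the RefSeq annotation. Capitals mark 3 motifs on either strand. The first is CCAAT, a box known from many promoters. The second is TATAAA, the core of the TATA box. The third is the octamer ATTTGCAT. A motif on the opposite strand appears as its reverse complement. Of the genes shown, H2AFZ, CENPA and HIST1H2BD were called higher in SCNT4c-TDG, the first pair also in SCNT4c-KG, and H1FOO was called lower in SCNT4c-TDG.

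H2AFZ, chr8:120563502-120563801, plus strand: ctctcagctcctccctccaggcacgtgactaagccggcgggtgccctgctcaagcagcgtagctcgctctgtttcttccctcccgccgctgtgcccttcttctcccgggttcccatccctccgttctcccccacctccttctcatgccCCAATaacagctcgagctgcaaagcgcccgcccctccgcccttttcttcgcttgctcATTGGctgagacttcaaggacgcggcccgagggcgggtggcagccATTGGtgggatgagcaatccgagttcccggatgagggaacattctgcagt
CENPA, chr3:112272589-112272888, minus strand: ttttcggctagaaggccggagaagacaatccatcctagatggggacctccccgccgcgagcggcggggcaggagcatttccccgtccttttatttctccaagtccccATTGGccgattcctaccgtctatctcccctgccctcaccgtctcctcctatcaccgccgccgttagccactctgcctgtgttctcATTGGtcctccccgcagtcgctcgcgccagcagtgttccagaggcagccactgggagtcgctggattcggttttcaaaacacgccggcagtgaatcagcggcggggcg
HIST1H2BD, chr7:20820840-20821139, plus strand: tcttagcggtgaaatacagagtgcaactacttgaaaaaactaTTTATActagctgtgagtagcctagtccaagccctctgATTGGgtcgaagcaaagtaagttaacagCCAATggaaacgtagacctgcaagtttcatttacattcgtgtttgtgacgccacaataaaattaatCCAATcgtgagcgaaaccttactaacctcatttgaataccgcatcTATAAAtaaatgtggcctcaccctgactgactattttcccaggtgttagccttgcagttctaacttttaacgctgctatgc
H1FOO, chr13:68921241-68921540, plus strand: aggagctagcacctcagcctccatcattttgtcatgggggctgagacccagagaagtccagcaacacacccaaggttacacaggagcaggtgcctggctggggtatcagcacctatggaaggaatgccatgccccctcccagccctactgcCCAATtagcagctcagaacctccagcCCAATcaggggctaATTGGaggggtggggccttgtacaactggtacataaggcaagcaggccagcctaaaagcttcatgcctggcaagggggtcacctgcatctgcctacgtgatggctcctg

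CCAAT was present in 6 of the 7 member promoters (85.7%), H2AFY being the exception, against 35.7% of 20632 promoters of protein-coding genes. H2AFZ, HIST1H2BD and H1FOO had 3 matches each, and CENPA and HIST1H3E had 2. TATAAA was found in the replication-type members HIST1H2BD and HIST1H3E and in no variant member, against 11.6% of all promoters. The forward match of HIST1H2BD began 31 bases before the start. The octamer, known from H2B promoters, was in none of the 7, in 20 of 49 replication-type LOC entries (40.8%) and in 1.47% of all promoters. CCAAT was found in the promoters of genes that were called higher (H2AFZ) and lower (H1FOO) alike.

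**Figure D4:**
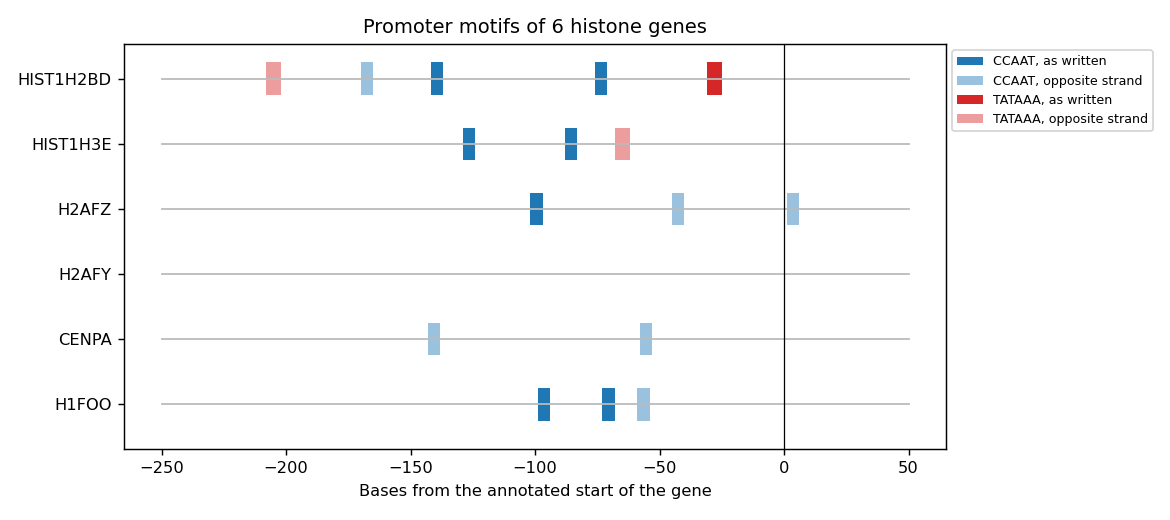
Positions of CCAAT and TATAAA on either strand in the 300-base promoter windows of 6 of the 7 histone genes, in bases from the annotated start. TATAAA occurs only in HIST1H2BD and HIST1H3E, and CCAAT in all but H2AFY.

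The 70 LOC entries with a histone product gave a wider view of the same classes. A mean of at least 10 in some group was reached by 34 of 49 replication-type entries, 7 of 8 somatic variants and 6 of 12 oocyte or germline variants. Of the 39 entries tested in the embryos 17 were called higher and 2 lower in SCNT4c-KG, and 14 higher and 3 lower in SCNT4c-TDG. Over all features 17.6% were called higher and 19.6% lower in the first, and 15.7% and 17.6% in the second. The median log2 differences over the 39 entries tested were 2.04 and 1.56, beside −0.30 and −0.26 over all features. Of the 17 called higher in SCNT4c-KG 8 had a mean under 10 over the untreated embryo groups, as had 7 of the 14 in SCNT4c-TDG. These passed the filter on low values only through the treated groups and so had to differ. Among the 39 tested 10 had such a mean, so the counts and the medians are no support for a rise of histone genes in general. The entries that did not pass were not tested. In SCNT8c 1 was higher and 2 lower, with a median of −0.15, where 2.62% and 3.16% of all features were called. Between SCNT4c-TDG and SCNT4c-KG 1 was higher and 4 lower, where 7.07% and 9.13% of all features were called. These counts are near those shares. Against PFF 12 of 33 were higher and 10 lower, near the 39.7% and 38.5% of all features.

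Of the 8 somatic variant entries 6 were tested. In SCNT4c-KG 4 were called higher and 0 lower, where 17.6% and 19.6% of all features were called. In SCNT4c-TDG 4 were higher and 1 lower, where 15.7% and 17.6% of all features were called. Not tested were the macroH2A.2 gene LOC100738475 and the H2AX entry LOC100522201. The former had a mean of 20.3 in SCNT4c, 0 in every SCNT4c-KG library and 1.86 in SCNT4c-TDG. The latter was at 0 in every library. LOC100521680 had a log2 difference of 3.27 ± 0.22 (SE, limma adjusted p = 5.50e-08) in SCNT4c-KG and 1.58 ± 0.22 (adjusted p = 8.05e-05) in SCNT4c-TDG. The H2A.V gene LOC100512448 had 4.22 ± 0.42 (adjusted p = 3.13e-06) and 3.12 ± 0.42 (adjusted p = 6.36e-05). H1.0 (LOC100510904), the linker histone of resting cells, went the other way in SCNT4c-TDG, with −2.89 (adjusted p = 0.0162), and was called higher in SCNT8c, with 3.24 (adjusted p = 0.0396). Against PFF, where 38.5% of all features were called lower, 5 of the 7 somatic variants tested were lower, led by H1x (LOC100516295), from a mean of 2976 in PFF to 3.88 in SCNT4c.

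Among replication-type entries, 11 of 27 tested were higher and 2 lower in SCNT4c-KG, where 17.6% and 19.6% of all features were called. In SCNT4c-TDG 8 were higher and 2 lower, where 15.7% and 17.6% of all features were called. Several of those called higher, LOC106510170 among them, passed the filter on low values only through the treated groups. These counts are therefore no support for a rise of the class. The H2A gene LOC110261483 was at 0 in all PFF libraries and at 56.0, 75.2 and 39.9 in SCNT4c. It read 2008, 1924 and 1396 in SCNT4c-KG and 877.2, 739.5 and 1018 in SCNT4c-TDG, all above SCNT4c. The H2A type 2-C gene LOC106510170 was close to 0 in untreated 4-cell embryos, with 1.58, 3.50 and 0, and read 189.5, 153.6 and 155.3 after KDM4A and GSK126. Against PFF 9 of 23 were higher and 5 lower, where 39.7% and 38.5% of all features were called. Summed over all 51 replication-type genes, members included, the value was 2110 ± 420 in SCNT4c, 5092 ± 916 in SCNT4c-KG, 3689 ± 375 in SCNT4c-TDG, 3041 ± 816 in SCNT8c and 5289 ± 264 in PFF (SD, n = 3). The place of PFF in that order rested on LOC595122, an H1.3-like gene: without it the sums were 3032 in PFF, 4861 in SCNT4c-KG and 3557 in SCNT4c-TDG. As a share of all deposited values the replication-type genes took 0.0190% in PFF, 0.0263% in SCNT4c-KG and 0.0247% in SCNT4c-TDG.

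**Figure D5:**
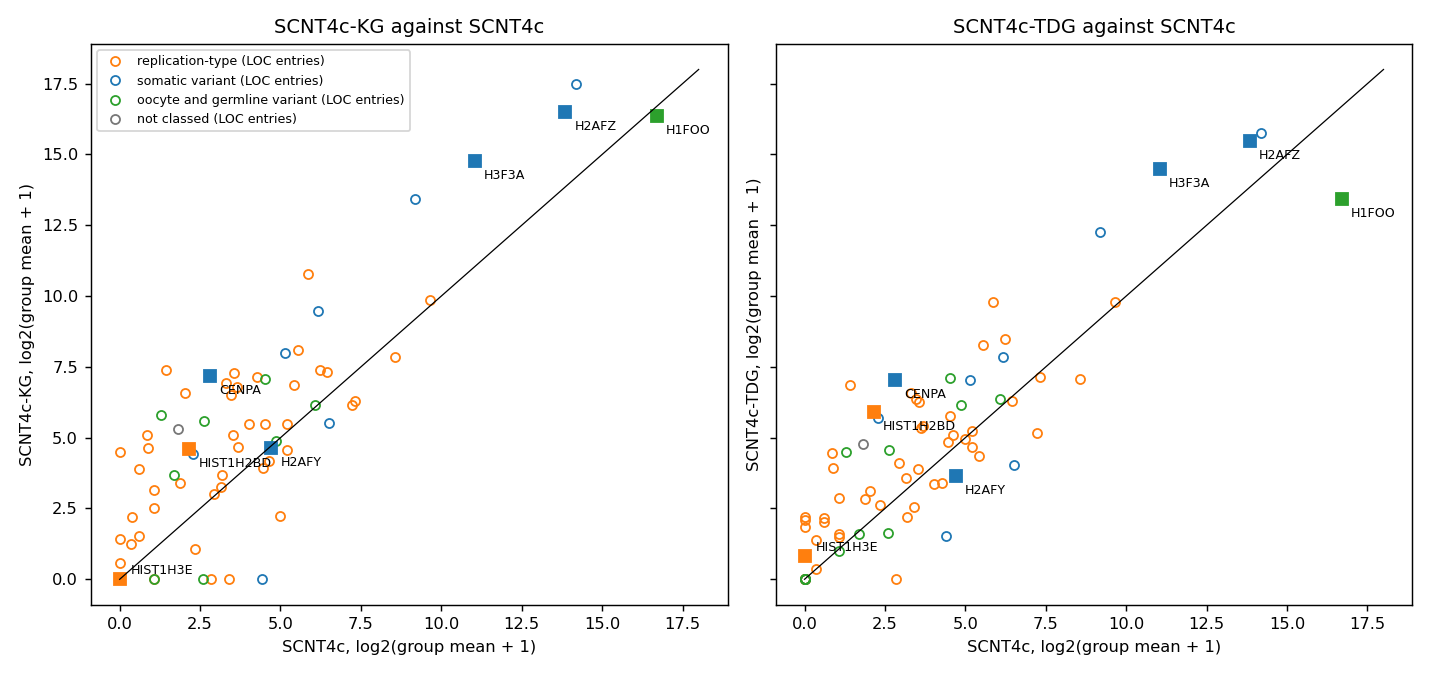
Group means as log2(mean + 1) of SCNT4c (horizontal) against SCNT4c-KG (left) and SCNT4c-TDG (right), for 7 members (filled squares, named) and 70 LOC entries (open circles) coloured by class; the line marks equal values. Most somatic variants lie above the line in both panels, and H1FOO lies below it in the right panel.

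The genes that make and load histones were called in both directions. The shares of all features called, to read the counts against, were 17.6% higher and 19.6% lower in SCNT4c-KG, 15.7% and 17.6% in SCNT4c-TDG, 2.62% and 3.16% in SCNT8c, 7.07% and 9.13% between the treatments, and 39.7% and 38.5% against PFF. Of the 22 genes listed for histone mRNA synthesis and processing 15 were tested; 3 were called higher and 4 lower in SCNT4c-KG, and 5 higher and 2 lower in SCNT4c-TDG. The SCNT4c-KG counts are near the share of all features, and none is read as particular to the list. SLBP, which binds the stem-loop, had log2 differences of 4.23 (limma adjusted p = 0.00130) and 2.96 (adjusted p = 0.0142), and CSTF1, a cleavage factor, had 3.01 and 2.68. LSM10, a subunit of the U7 particle that processes histone mRNA, fell by 2.06 and by 2.62. In SCNT8c ERI1, an exonuclease that trims the stem-loop, was higher (1.23) and CSTF1 lower (−1.60). Against PFF 4 were higher, led by LSM10 (2.95), and 4 lower, among them UPF1 (−5.49) and SLBP (−2.53). Between the treatments 2 were higher in SCNT4c-TDG, CASP8AP2 (2.29) and ERI1 (1.10), and CSTF2 was lower (−1.80).

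Of 35 listed chaperones 25 were tested among embryos. In SCNT4c-KG 5 were higher and 5 lower, shares of 20% each that lie near those of all features. Of the HIRA complex, which loads H3.3, CABIN1 had 3.59 and UBN2 1.22 while UBN1 fell by 1.17, and VPS72, a chaperone of H2A.Z, had 1.88. ASF1A and CHAF1B, which pass H3 and H4 on, fell by 1.29 and by 1.28. In SCNT4c-TDG 5 were higher, led by CABIN1 (3.53), UBN2 (2.64) and ATRX (2.45), and 6 lower, led by the oocyte nucleoplasmin NPM2 (−4.29) and NPM3 (−3.98). NPM2 was also lower in SCNT8c (−2.36), where 1 was higher and 2 lower, and in SCNT4c-TDG against SCNT4c-KG (−2.95), where 4 were higher and 5 lower. Against PFF 12 of 26 were higher, led by NPM2 (12.25) and ASF1B (6.06), and 8 lower, led by SET (−9.38), where 39.7% and 38.5% of all features were called. DAXX, IPO4, NAP1L4, NASP and SUPT16H are listed at 0 in all 5 groups, fibroblasts included.

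Of 17 S phase genes tested 5 were higher and 4 lower under each treatment, where 17.6% and 19.6% of all features were called in SCNT4c-KG and 15.7% and 17.6% in SCNT4c-TDG. CCNE1, the cyclin of S phase entry, had 1.99 in SCNT4c-KG and 3.43 in SCNT4c-TDG, TK1 had 3.46 and 2.19, and TYMS fell by 3.31 and by 2.60. In SCNT8c TK1 (3.19) and GINS1 (1.70) were higher and 0 lower (7 at unadjusted p under 0.05). Against PFF 5 were higher, led by PCNA (4.14), and GINS2 was lower (−3.51). Between the treatments 3 were higher in SCNT4c-TDG, among them CCNE1 (1.44), and 3 lower, led by RRM2 (−2.28).

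Recovered reads per library ran from 12354649 to 22868038, lowest in SCNT4c-KG. KDM4A read 1448 ± 24.9 in SCNT4c-KG against 194.4 ± 102.9 in SCNT4c, and TDG read 55580 ± 5177 in SCNT4c-TDG against 1713 ± 802 (SD, n = 3). KDM4A was also at 775 ± 194 in SCNT4c-TDG, above every SCNT4c library, and TDG at 4366 ± 436 in SCNT4c-KG. Of 15 fibroblast markers 13 reached a mean of 10 in PFF, PDGFRA being listed at 0, and their sum was 3071000 to 3405000 in PFF, 3510 to 4679 in SCNT4c, 1178 to 2039 in SCNT4c-KG, 819.5 to 1039 in SCNT4c-TDG and 1589 to 1755 in SCNT8c. The 13 oocyte and early embryo markers in the table summed to 217200 to 243800 in SCNT4c, 83630 to 125200 in SCNT4c-KG, 61670 to 62660 in SCNT4c-TDG and 57950 to 152200 in SCNT8c, with BMP15, GDF9 and MOS at 0 in every group. In SCNT4c-TDG H1FOO was lower along with this sum, and ZP4 was lower (−2.76), while DPPA3 was higher (2.85). In SCNT4c-KG the sum was lower too, but H1FOO did not pass the test (−0.44). The highest gene of the list was KPNA7 in SCNT4c (mean 115600) and DPPA3 in SCNT4c-TDG (34780). The part of the marker list in the level of H1FOO was not tested, and fewer cells of a type and less RNA per cell cannot be told apart in pooled embryos. The 13 entries of cumulus markers, which stand for 12 genes, summed to 1638 to 1996 in SCNT4c and 797.3 to 2220 in the other embryo groups, with AMH, FOXL2 and PTX3 at 0 in every embryo group. INHBA, listed under a pair of gene IDs of which the other was at 0, was the highest entry of that list in the embryos, with a mean of 1412 in SCNT4c, 673.2 in SCNT4c-KG, 486.4 in SCNT4c-TDG and 1487 in SCNT8c.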

How the data were processed

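RNA was measured in 15 libraries. Per the labels, cDNA was made with the SMARTer Pico PCR kit, sonicated and built into libraries with a VAHTS kit. Per the submitters' processing notes and the study's methods, the authors used CASAVA (1.8.2), Trimmomatic (0.39), STAR (2.5.3a) with uniquely mapped reads, StringTie (2.1.2), HTSeq and DESeq2 on Sscrofa11.1; strand setting and batches are not given in the sources used here. The deposited signal is the HTSeq count of a gene divided by the authors by a single factor per library, whose making is not given in the sources used here. Whole reads were recovered for 100% of values above 0 (tolerance 0.01), 12354649 to 22868038 per library, and 241 repeated gene IDs were removed from 43535 entries.

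Members, classes and gene lists were chosen with earlier results of these data known. Named were every variant member with a mean of 10 in some group, the replication-type members (8 at most), the 5 largest called changes per comparison and, for the lists, up to 3 called changes each way. The main test was limma (3.58.1) on log2(value + 1) over features with a mean of at least 10, with an intensity trend and Benjamini-Hochberg adjustment; called means adjusted p under 0.05 and a fold above 2. A fold on this scale understates the change of low genes. The 12 embryo libraries formed a fit, and PFF with SCNT4c another. Scripts were tested on simulated data. Alternatives used edgeR (4.0.16) and DESeq2 (1.42.0) on recovered reads and the other choices described under the limits. Same-numbered libraries of SCNT4c-KG, SCNT4c-TDG and SCNT8c did not deviate together (r from −0.061 to 0.195), so numbers were not taken as pairs. Intervals and floors cover counting error only. Positions, exons, promoters and stem-loops were read from the RefSeq genome and annotation of Sscrofa11.1. The promoter of H3F3A and some genes of the lists are not reported here.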

Additional observations from a re-analysis of the deposited data

How the results depend on the processing

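Of 16 calls on members, 10 were kept under every alternative run and 6 were lost under some; 1 of these changed sign, HIST1H2BD in SCNT4c-TDG against SCNT4c, at −0.59 when summed with the assembled transcript at its locus (the cause was not tested). The number of members called was within 1.5 times the main count in SCNT4c-KG and SCNT4c-TDG against SCNT4c under every alternative. In SCNT8c against SCNT4c (1 called) it was 0 with only the 2 groups in the fit, and 0 to 3 with each library left out in turn. Between SCNT4c-TDG and SCNT4c-KG (2 called) it was 1 after quantile normalization, with the same total in each library, with edgeR and with DESeq2, and 1 to 2 with each library left out. In SCNT4c against PFF (5 called) it was 3 with the same total in each library and 2 with edgeR or DESeq2. Where a replicate was left out, a group kept 2 libraries. Per kilobase of exon, the ratio of H1FOO to H2AFZ in SCNT4c was 4.77 in place of 7.21, and that of H3F3A to H2AFZ 0.587 in place of 0.302 in SCNT4c-KG and 0.979 in place of 0.503 in SCNT4c-TDG. Without H2AFZ, the summed somatic variant members were 13.1 (SCNT4c-KG), 10.7 (SCNT4c-TDG) and 1.65 (SCNT8c) times SCNT4c, in place of 7.10, 4.02 and 2.60, and SCNT4c was 0.486 times PFF in place of 2.23. The oocyte class has no other member, so that alternative gave no value there. Scaling by quantiles, totals, edgeR or DESeq2 moved the median over all features by −0.09 to 0.36 on the log2 scale among embryos and by −0.44 to 0.89 against PFF. The replicate block, which could be fitted for SCNT4c-TDG against SCNT4c-KG alone, called 2 members, as without it; the columns of SCNT4c carry no replicate number. No pair of members encodes the same protein, so leaving such pairs out changed no count. The list of LOC entries was made, and SCNT8c replicate 3 singled out among the libraries left out, after seeing the data; the SCNT8c levels and shares without it were added then too. Depth limits HIST1H3E, HIST1H2BD, CENPA and H2AFY, which had under 10 reads in at least some libraries.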
